A study of Homo sapiens with 6 samples.

Results

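Collagens and the enzymes that modify, fold and cross-link them were examined in MDA-MB-231, an established human line from a triple-negative breast cancer. The members are the protein-coding genes of the deposited count table whose symbol is that of a collagen chain (COL, a number, A and a number), together with 3 prolyl 4-hydroxylase subunits (P4HA1 to P4HA3), 3 lysyl hydroxylases (PLOD1 to PLOD3), 5 lysyl oxidases (LOX and LOXL1 to LOXL4) and the chaperone SERPINH1. These are 56 of the 58735 genes in the table, 44 of them collagen chains and 12 enzymes or the chaperone. Cells were MDA-MB-231 without any stated genetic change, either labelled Control (3 libraries) or labelled PM2.5, airborne fine particulate matter (3 libraries), with RNA taken after 48 h. Neither the dose of particles, nor what the controls received, nor how separate the cultures were is stated in the labels, so p-values measure only the spread between these libraries, which may be technical.

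Collagen chains are made in the endoplasmic reticulum, where prolyl 4-hydroxylases and lysyl hydroxylases modify them before 3 chains wind into a triple helix, which SERPINH1 (HSP47) holds folded on its way out. After secretion, lysyl oxidases convert lysine side chains into aldehydes that cross-link the fibres. In breast tumours most fibrillar collagen is laid down by stromal fibroblasts, while carcinoma cells are known sources of basement membrane and other chains and of lysyl oxidases.

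Total counts ran from 31846136 to 34691009 per library. Control replicate 3 stood apart from Control replicates 1 and 2 on the second principal component. It was above both of them in 22 of the 35 members tested and below both in 7. The same count over all genes was not made, so this is not read as a trait of the members. HMOX1 and CYP1A1 are known to be induced by particulate matter, yet both lay below Control in the PM2.5 libraries (log2 changes -3.99 ± 0.12 and -1.20 ± 0.24, SE, n = 3 each). Directions below are therefore those of the libraries as labelled. Levels are CPM, counts scaled by library size with TMM factors. Among defining genes of the line, VIM was at 2290 ± 319.7 CPM in Control, with ESR1 at 0 counts and CDH1 at 3 counts over the 6 libraries. ERBB2 was the best expressed of the 5 genes listed as low, at 64.9 ± 7.01 CPM in Control and 43.1 ± 5.51 CPM in PM2.5. It was called lower (adjusted p = 0.00093 by edgeR). Of the 5 listed as present, CAV1 and MSN were called higher, while VIM, CD44 and AXL were not called. Of 7 fibroblast markers DCN, LUM, POSTN and ASPN were at 0 counts in all 6 libraries, and the 7 summed to 4.32 to 6.53 CPM in Control and 4.32 to 5.13 CPM in PM2.5. The 5 leukocyte markers, with PTPRC and CD3E at 0, summed to 1.29 to 2.65 CPM in Control and 2.88 to 4.05 CPM in PM2.5. Most of that sum was CD14, which was called higher (adjusted p = 0.039 by edgeR). The 4 endothelial markers, with CDH5 at 4 counts in all, summed to 39.8 to 52.7 CPM in Control and 54.3 to 58.8 CPM in PM2.5. Nearly all of it was PECAM1, which was called higher (adjusted p = 0.0275 by edgeR). The 5 luminal breast markers, with ESR1 at 0, summed to 538.8 to 723 CPM in Control and 801 to 930.4 CPM in PM2.5. Nearly all of that sum was KRT8 and XBP1, which were called higher, while GATA3 was called lower (5.85 ± 0.987 to 4.04 ± 0.414 CPM, adjusted p = 0.0429 by edgeR). The part of these lists in the results was not tested. In such bulk RNA, fewer cells of a type and less RNA per cell cannot be told apart.

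The bases before the start sites of several members hold the core sequence ACGTG or GCGTG, which hypoxia-inducible factors (both) and the aryl hydrocarbon receptor (the second) are known to bind. RefSeq promoter windows (250 bases before to 50 after the start, build GRCh38.p14) were matched for 42 of the 56 members. Of these, the stretches that precede the start and lie outside GENCODE 29 exons are printed for PLOD2, LOX, COL12A1 and COL5A1, the 4 members called higher in which ACGTG lies there, and for COL13A1, the member with the smallest p-value. Sequences are printed 5′ to 3′ on the gene's strand, and capitals mark ACGTG or GCGTG, which share their last 4 letters, on either strand.
PLOD2 (chr3:146161185-146161434, minus strand): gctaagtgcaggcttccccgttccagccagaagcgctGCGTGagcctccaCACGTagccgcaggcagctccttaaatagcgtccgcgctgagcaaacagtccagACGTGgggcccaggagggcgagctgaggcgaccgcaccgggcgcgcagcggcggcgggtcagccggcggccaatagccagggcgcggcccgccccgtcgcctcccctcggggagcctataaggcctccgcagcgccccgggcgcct
LOX (chr5:122078361-122078509, minus strand): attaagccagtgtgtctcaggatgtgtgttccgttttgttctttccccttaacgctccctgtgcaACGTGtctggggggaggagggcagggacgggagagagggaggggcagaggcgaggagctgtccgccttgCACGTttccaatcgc
COL12A1 (chr6:75206054-75206303, minus strand): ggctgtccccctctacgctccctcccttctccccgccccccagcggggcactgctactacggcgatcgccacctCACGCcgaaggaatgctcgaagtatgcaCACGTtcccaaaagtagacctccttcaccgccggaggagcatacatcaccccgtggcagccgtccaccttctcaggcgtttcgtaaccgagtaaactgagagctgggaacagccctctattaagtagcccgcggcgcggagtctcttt
COL5A1 (chr9:134641553-134641773, plus strand): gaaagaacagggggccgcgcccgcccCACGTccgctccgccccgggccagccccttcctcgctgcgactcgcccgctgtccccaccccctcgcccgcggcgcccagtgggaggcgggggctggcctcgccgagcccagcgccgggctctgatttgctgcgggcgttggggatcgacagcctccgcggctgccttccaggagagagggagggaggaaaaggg
COL13A1 (chr10:69801656-69801866, plus strand): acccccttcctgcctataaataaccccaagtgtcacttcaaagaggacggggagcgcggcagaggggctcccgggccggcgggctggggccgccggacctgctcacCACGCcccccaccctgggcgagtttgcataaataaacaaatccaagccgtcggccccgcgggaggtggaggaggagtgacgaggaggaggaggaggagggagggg
PLOD2 carries 2 ACGTG cores and 1 GCGTG core in its 250 bases. Over whole windows, searching both strands, ACGTG was found in 5 of the 19 matched members called higher and in 21.4% of all 35116 RefSeq windows. GCGTG was found in 7 of the 19 and in 36.5% of all windows. A gene with several start sites has several windows, so its chance of a match is larger. TATAAA was found in 6 of the 19 and 11.5% of all windows, GGGCGG in 13 and 45.0%, CCAAT in 6 and 34.6%, and the heat shock half-site pair GAANNTTC in 2 and 6.77%. The letters TGANTCA, an AP-1 site, were in the window of no member called higher and in 7.71% of all windows. Each of these motifs other than TATAAA and TGANTCA also has a match in the windows of SERPINH1, a heat shock protein. These matches describe the letters alone.

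A filter on low counts kept 35 of the 56 members. Of these 24 were higher in the libraries labelled PM2.5, 0 were lower and 11 were not called, at an adjusted p under 0.05 (quasi-likelihood test of edgeR, Benjamini-Hochberg over all 14975 genes tested). Over all genes tested 16.1% were called higher and 15.8% lower, or 31.9% in either direction. At an unadjusted p under 0.05 the number of members lower was also 0. By limma-voom and by DESeq2 it was 0 as well. The median log2 change of the 35 was 0.69, beside -0.01 over all genes tested. COL1A2 and COL19A1 passed the filter only through the PM2.5 libraries, so the count over the members that passed is a description. Among 24 members with a mean of at least 20 CPM over the 6 libraries, a limit set over both groups, 20 were called higher, 0 lower and 4 were not called, beside 19.1% called higher and 21.1% called lower of the 6558 genes at that level. The groups did not overlap, with PM2.5 above, for 27 of the 35 members and 21.4% of all genes tested, and no member had PM2.5 below (22.9% of all genes).

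**Figure D1:**
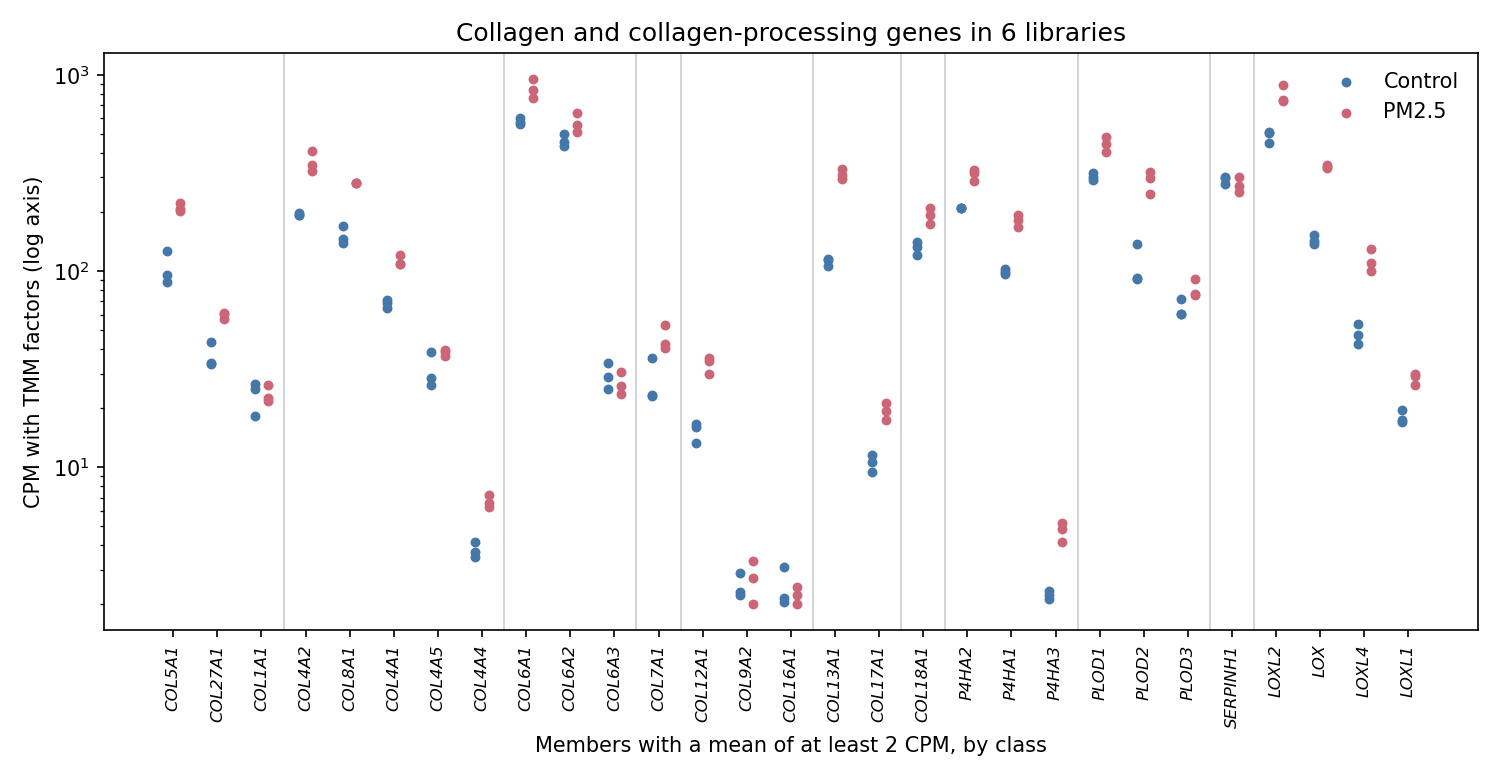
Level in CPM (log axis) of the 29 members with a mean of at least 2 CPM, by class, in 3 Control (blue) and 3 PM2.5 (red) libraries, with each point 1 library. In most members the 3 PM2.5 points lie above the 3 Control points, while those of COL1A1, COL6A3, COL9A2, COL16A1, COL4A5 and SERPINH1 overlap.

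**Figure D2:**
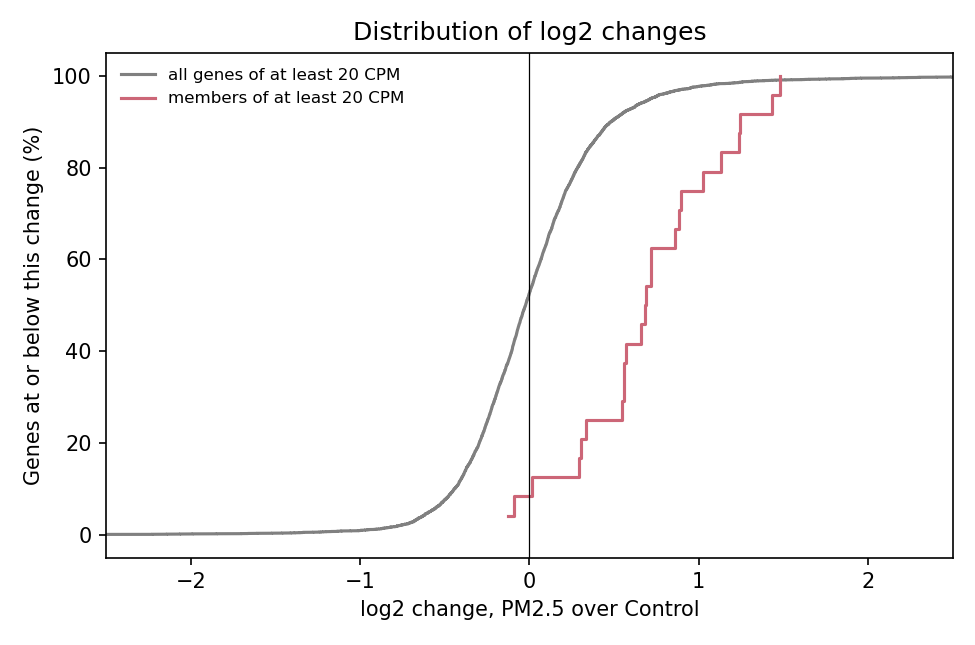
Share of genes (%) at or below each log2 change, PM2.5 over Control, for the 6558 genes and the 24 members with a mean of at least 20 CPM. The members' curve lies to the right of that of all genes, with 4 members not called.

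The summed level of the 44 collagen genes was 1904 to 2051 CPM in the 3 Control libraries and 2926 to 3431 CPM in the 3 PM2.5 libraries. The 12 enzymes and the chaperone summed to 1760 to 1789 CPM in Control and 2733 to 3007 CPM in PM2.5. Each library labelled PM2.5 thus held more of both than any Control library.

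Fibrillar collagens form the banded fibres of connective tissue. Of 11 members in this class 5 passed the filter, COL1A2 only through the PM2.5 libraries. COL5A1, COL27A1 and COL1A2 were called higher. COL5A1, a chain that starts and limits fibre growth, stood at 95.6, 88.3 and 125.9 CPM in Control and 201.3, 207.7 and 222.9 CPM in PM2.5. It rose 2.04-fold (a log2 change of 1.03 with an SE of 0.12, edgeR adjusted p = 8.28e-06), with every PM2.5 library above every Control library. COL27A1, a chain known from cartilage, was at 33.8, 33.7 and 43.6 CPM in Control and 57.0, 61.0 and 60.3 CPM in PM2.5, a rise of 0.68 ± 0.11 on the log2 scale. COL1A1, the main chain of type I collagen, was at 26.5, 24.96 and 18.2 CPM in Control and 22.5, 26.1 and 21.8 CPM in PM2.5. Its groups overlapped and its log2 change of 0.02 ± 0.14 was not called (edgeR adjusted p = 0.943).

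COL1A2, the partner chain of COL1A1, had 0, 0 and 2 counts in Control and 22, 16 and 18 counts in PM2.5, a ratio of 26.6 with a 95% exact counting interval of 7.04 to 225 that takes each count as independent. Its adjusted p was 0.000725 by edgeR, but it had passed the filter only through the PM2.5 libraries, so that p is a description. With no filter on low counts the adjusted p was 8.03e-05 by edgeR. That setting lowered the adjusted p of other called members as well (COL13A1 from 7.2e-09 to 1.45e-40 by edgeR). The unfiltered value of COL1A2 is therefore a description too. At 0.547 CPM in PM2.5 it took 2.03% ± 0.411 of the type I chains' level per length. Type I collagen is known to be made of both chains. COL11A2, at 0.728 ± 0.264 and 1.06 ± 0.0573 CPM, was not called. COL5A2, the usual partner of COL5A1, had 5 counts in all Control libraries and 27 in all PM2.5 libraries and did not pass the filter, and COL5A3 had 0 counts.

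Network-forming collagens build the sheets of basement membranes. Of 9 members 6 passed the filter and 4 rose, COL4A2, COL8A1, COL4A1 and COL4A4. COL4A2 was at 196.7, 191.9 and 192.3 CPM in Control and 348.0, 323.2 and 410.3 CPM in PM2.5 (1.86-fold, adjusted p = 6.59e-06 by edgeR). COL4A1, with which it forms the common type IV trimer, was at 69.0, 64.7 and 70.8 CPM in Control and 108.3, 108.2 and 120.2 CPM in PM2.5 (1.65-fold, adjusted p = 2.56e-05 by edgeR). Both chains were thus higher in every PM2.5 library than in any Control library.

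The COL4A genes lie in head-to-head pairs whose start sites in RefSeq are close. The starts of COL4A1 (minus strand, 110307157) and COL4A2 (plus strand, 110307284) on chromosome 13 are 127 bases apart, those of COL4A4 and COL4A3 on chromosome 2 are 419 apart and those of COL4A6 and COL4A5 on the X chromosome are 380 apart. The ratio of COL4A2 to COL4A1 per length was 2.18, 2.27 and 2.07 in Control and 2.45, 2.28 and 2.61 in PM2.5, which do not overlap. In the other pairs the partners differed in level. COL4A4 rose by 0.82 ± 0.18 on the log2 scale, from 3.77 ± 0.34 to 6.66 ± 0.491 CPM, while COL4A3 had 22 counts in all Control libraries and 14 in all PM2.5 libraries and did not pass the filter. COL4A5 was at 26.2, 28.4 and 38.7 CPM in Control and 39.4, 38.9 and 37.0 CPM in PM2.5. It was not called (log2 change 0.30 ± 0.13, adjusted p = 0.0866 by edgeR), but was without Control replicate 3, at a log2 change of 0.49 and an adjusted p of 0.00244 in the same test. COL4A6, with 43, 50 and 53 counts in Control and 75, 29 and 49 counts in PM2.5, was not called (log2 change -0.01 ± 0.34).

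COL8A1, a short network collagen of vessel walls and the cornea, was at 146.3, 138.5 and 170.3 CPM in Control and 279.5, 280.2 and 281.0 CPM in PM2.5 (1.85-fold, adjusted p = 4.91e-06 by edgeR). Its 3 PM2.5 libraries differed by less than its Control libraries. The anchoring fibril chain COL7A1, which ties the epidermal basement membrane to the dermis, was at 23.1, 23.3 and 35.9 CPM in Control and 42.3, 40.3 and 53.2 CPM in PM2.5 (log2 change 0.72 ± 0.16). Without Control replicate 3 it kept its call, and Control replicate 3 was 1.55 times the mean of the other 2 Control libraries.

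Collagen VI, a beaded filament of the pericellular matrix, was the most abundant collagen. COL6A1 was at 572.5, 560.9 and 601.2 CPM in Control and 837.7, 763.5 and 949.1 CPM in PM2.5 (1.47-fold, adjusted p = 0.000676 by edgeR). COL6A2, its neighbour on chromosome 21 (COL6A1 at 45981737 to 46005050 and COL6A2 at 46098097 to 46132849, both on the plus strand, GRCh38), was at 501.2, 454.6 and 433.3 CPM in Control and 555.2, 512.0 and 635.2 CPM in PM2.5. Its rise of 0.29 ± 0.10 on the log2 scale (adjusted p = 0.0424 by edgeR) was lost on leaving out Control replicate 2 (edgeR adjusted p = 0.129), Control replicate 3 (0.0556), PM2.5 replicate 1 (0.115) or PM2.5 replicate 3 (0.168), and with the replicate block (0.0894). COL6A3, the third chain of the filament, was at 28.8, 25.2 and 33.8 CPM in Control and 23.7, 26.0 and 30.7 CPM in PM2.5, and its log2 change of -0.13 ± 0.13 was not called. Per kb of the deposited gene length COL6A1 exceeded COL6A3 by 73.5 ± 8.25 times in Control and 117 ± 11.6 times in PM2.5 (SD, n = 3 each). The 2 groups' ratios did not overlap. Per kb of the longest coding transcript the excess was smaller, at 136.4 against 2.72 CPM per kb in Control and 200.6 against 2.49 in PM2.5. COL6A5 and COL6A6 were at 0 counts in all libraries.

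COL13A1 and COL17A1 span the plasma membrane. COL13A1, a chain found at cell junctions and adhesions, is encoded on the plus strand of chromosome 10 from 69801867 to 69964275 (GRCh38, ENSG00000197467) and had the smallest p-value of all members. It was at 113.2, 115.4 and 106.3 CPM in Control and 309.0, 293.8 and 332.6 CPM in PM2.5, a 2.79-fold rise (a log2 change of 1.48 with an SE of 0.09, edgeR adjusted p = 7.2e-09). COL17A1, the hemidesmosome collagen, was at 11.6, 9.44 and 10.7 CPM in Control and 17.5, 19.2 and 21.3 CPM in PM2.5 (1.83-fold). Neither gene's groups overlapped, and COL23A1 and COL25A1, the other members of this class, had 2 counts each over the 6 libraries.

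FACIT collagens decorate the surface of fibres. Of 10 members 4 passed the filter and COL12A1 rose, from 16.6, 13.4 and 16.0 CPM in Control to 34.7, 36.1 and 29.9 CPM in PM2.5 (2.19-fold, adjusted p = 4.65e-06 by edgeR). COL9A2 (2.47 ± 0.353 and 2.69 ± 0.653 CPM) and COL16A1 (2.44 ± 0.575 and 2.23 ± 0.218 CPM) were not called and their groups overlapped. COL19A1 had 10 counts in all Control libraries and 35 in all PM2.5 libraries, with an adjusted p of 0.0562 by edgeR. It was called without Control replicate 3 (adjusted p = 0.0307 by edgeR) and by limma-voom (0.0498). Of the multiplexins COL18A1, whose end is cleaved off as endostatin, rose from 132.6, 120.5 and 140.2 CPM to 192.7, 174.6 and 208.6 CPM (1.46-fold), with 16.4% of its exonic bases under exons of SLC19A1. COL15A1 was not called, at 0.395 ± 0.169 and 0.435 ± 0.277 CPM.

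The other 21 members did not pass the filter, and 8 of them had 0 counts in every library: COL5A3, COL6A5, COL6A6, COL9A1, COL11A1, COL14A1, COL22A1 and COL28A1. A count of 0 over the 6 libraries allows up to 0.015 CPM, taken as 3 counts and covering counting error only. COL21A1 had 0 counts in each Control library and 10, 7 and 5 counts in PM2.5. COL24A1 (0, 4 and 6 counts in PM2.5) and COL3A1 (4, 0 and 2) were also at 0 in Control, and with 1 PM2.5 library at 0 their groups overlapped. No fold and no test is reported for these 3. Even numbers made up 60.2% to 61.9% of counts from 1 to 20 in a library and 49.7% to 51.0% of counts above 1000, and the cause was not tested. Whether 2 counts can stand for 1 RNA fragment is not stated in the labels, and if so the counting interval of COL1A2 is too narrow and the limits set by a count of 0 are too low. In either case the interval leaves out the spread between libraries. COL8A2 (4 counts in Control and 12 in PM2.5), COL9A3 (22 and 24), COL10A1 (4 and 2), COL26A1 (9 and 4), COL20A1 (0 and 2) and COL2A1 (0 and 1) were as sparse.

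**Figure D3:**
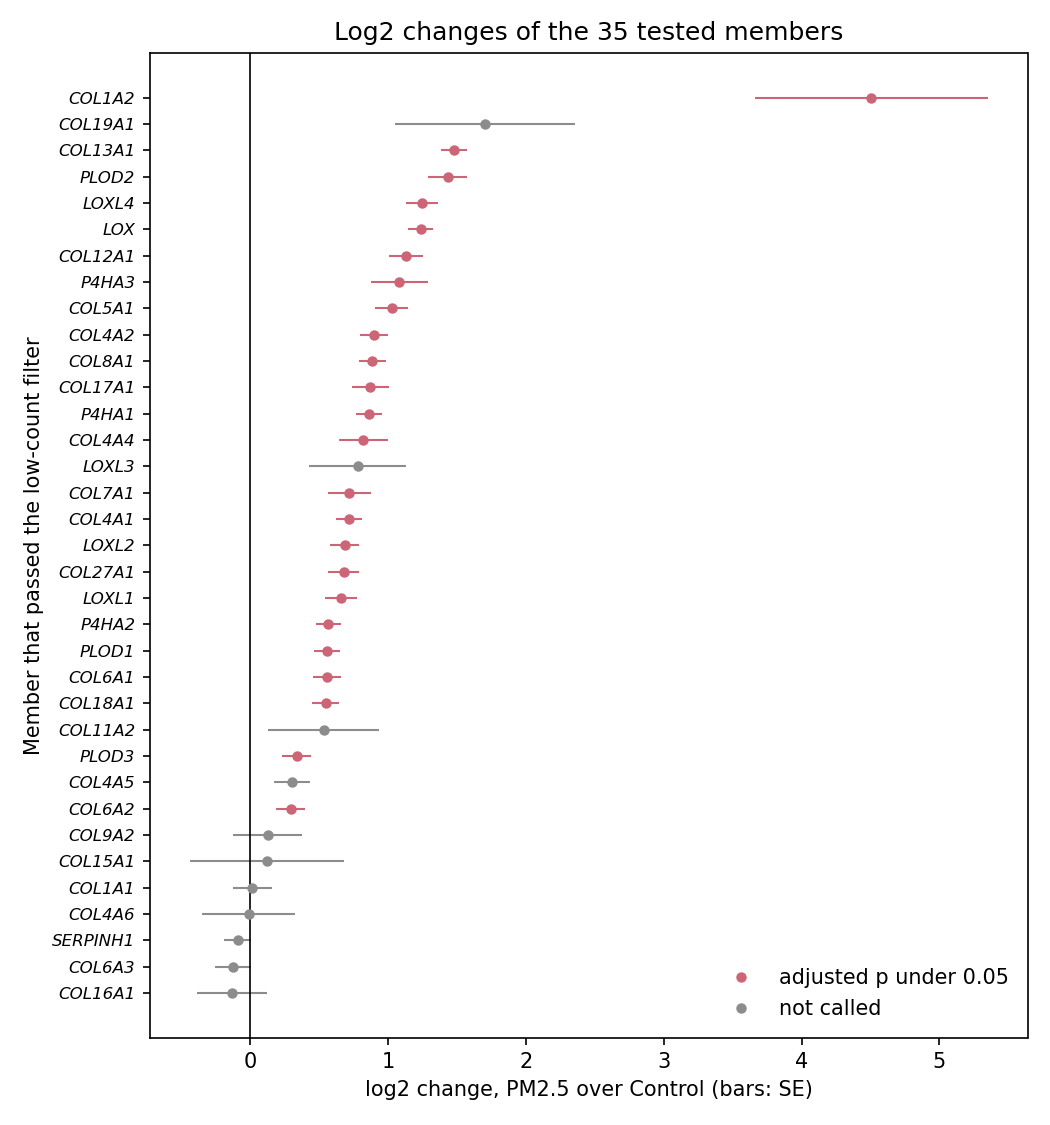
Log2 change, PM2.5 over Control, of the 35 members that passed the filter, with SE as bars, and colour marking the 24 with an adjusted p under 0.05. The 11 grey members are not called, and the fitted value of COL1A2 rests on 2 Control counts.

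Prolyl 4-hydroxylases hydroxylate the prolines that hold the triple helix together. All 3 alpha subunits rose. P4HA1 was at 96.4, 98.6 and 102.9 CPM in Control and 181.2, 192.8 and 167.6 CPM in PM2.5 (1.82-fold, adjusted p = 3.26e-06 by edgeR). P4HA2 was at 209.7, 208.4 and 208.3 CPM in Control and 315.0, 285.9 and 327.9 CPM in PM2.5 (1.48-fold), and the scarce P4HA3 rose 2.12-fold from 2.23 ± 0.111 to 4.73 ± 0.520 CPM. No group overlapped for any of the 3. P4HB, the protein disulfide isomerase that serves as their beta subunit, rose as well, from 815 ± 50.1 to 1442 ± 94.0 CPM (log2 change 0.82 ± 0.10). Which alpha subunit was the more abundant depended on the length used, with P4HA1 above P4HA2 per kb of the deposited gene length (32.1 against 24.6 CPM per kb in Control) and below it per kb of the longest coding transcript (34.9 against 62.4).

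Lysyl hydroxylases prepare lysines for glycosylation and cross-linking, and PLOD2 is the one known to act on the telopeptides at the chain ends. PLOD2 was at 91.1, 92.1 and 136.6 CPM in Control and 296.5, 319.5 and 247.7 CPM in PM2.5, a 2.70-fold rise (a log2 change of 1.43 with an SE of 0.14, edgeR adjusted p = 1.55e-06). PLOD1 rose 1.47-fold, from 314.7, 292.1 and 301.7 to 446.2, 405.8 and 484.6 CPM. PLOD3, which also transfers sugars to hydroxylysine, rose by 0.34 ± 0.11 on the log2 scale, from 60.3, 60.3 and 72.1 to 75.2, 76.7 and 91.6 CPM. That call (adjusted p = 0.0254) was lost without Control replicate 1 (adjusted p = 0.104), Control replicate 2 (0.108) or PM2.5 replicate 3 (0.104) by edgeR. The share of PLOD2 in the 3 enzymes' summed level per length went from 16.9% ± 3.16 in Control to 27.8% ± 4.32 in PM2.5 (SD, n = 3 each), and that of PLOD3 from 13.8% ± 0.777 to 10.5% ± 0.930. PLOD2 in Control replicate 3, at 20.5%, lay closest to PM2.5 replicate 3, at 23.2%.

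The chaperone SERPINH1, which binds folded procollagen alone, was at 297.1, 302.6 and 276.4 CPM in Control and 270.1, 251.4 and 302.4 CPM in PM2.5. Its groups overlapped and its log2 change of -0.09 ± 0.10 was not called (adjusted p = 0.52 by edgeR). Among its values over all alternatives tried, the log2 change ran from -0.16 to -0.03.

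Lysyl oxidases start the cross-links of collagen and elastin. Of the 5 members 4 rose and LOXL3 (0.884 ± 0.322 and 1.53 ± 0.0957 CPM, adjusted p = 0.105 by edgeR) was not called. LOXL2, a family member known from invading tumour cells, was at 509.9, 506.3 and 450.5 CPM in Control and 744.9, 731.6 and 884.0 CPM in PM2.5 (1.61-fold). LOXL4 was at 47.1, 42.4 and 53.7 CPM in Control and 109.8, 99.7 and 129.8 CPM in PM2.5 (2.37-fold, adjusted p = 7.26e-07 by edgeR), and LOXL1 rose 1.58-fold from 18.0 ± 1.36 to 28.4 ± 1.84 CPM. LOX itself was at 142.7, 136.9 and 152.5 CPM in Control and 346.2, 337.3 and 335.1 CPM in PM2.5 (2.36-fold, adjusted p = 4.64e-08 by edgeR). The order LOXL2, LOX, LOXL4, LOXL1 per length held in both groups and on both length scales. Exonic sequence shared with a different gene made up 19.3% of LOXL3 and 9.2% of LOXL1 (by the antisense gene LOXL1-AS1), and without a stated strand setting such reads cannot be told apart.

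Shares within the family differed between the groups as follows. LOX took 20.02% ± 1.46 of the summed level per length in Control and 25.8% ± 2.19 in PM2.5, LOXL4 10.1% ± 1.37 and 13.0% ± 0.755, and LOXL2 65.9% ± 3.22 and 57.8% ± 1.71 (SD, n = 3 each). None of these shares overlapped between the groups. Their size depends on the length used, with LOX and LOXL2 in Control at 26.0 and 85.7 CPM per kb of the deposited gene length. Per kb of the longest coding transcript they were at 28.2 and 137.8. For 8 pairs of members, chosen after their values were seen, the log2 ratio per length was compared by a two-sided exact permutation test over libraries. In 7 of them the groups did not overlap, with an exact p of 0.1, the smallest that 3 libraries against 3 allow, or 0.114 adjusted over the 8. The log2 ratio of PLOD2 to PLOD1 was higher by 0.90 in PM2.5, that of COL6A1 to COL6A3 by 0.68, LOXL4 to LOXL1 by 0.58, LOX to LOXL2 by 0.56, P4HA1 to P4HA2 by 0.29, COL6A1 to COL6A2 by 0.26 and COL4A2 to COL4A1 by 0.17. The pair COL4A5 and COL4A6 gave an exact permutation p of 0.4. No pair can pass 0.05 in this design. Because the pairs were chosen on these values, their p-values and the count of 7 are descriptions. The same count over other pairs of genes was not made.

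**Figure D4:**
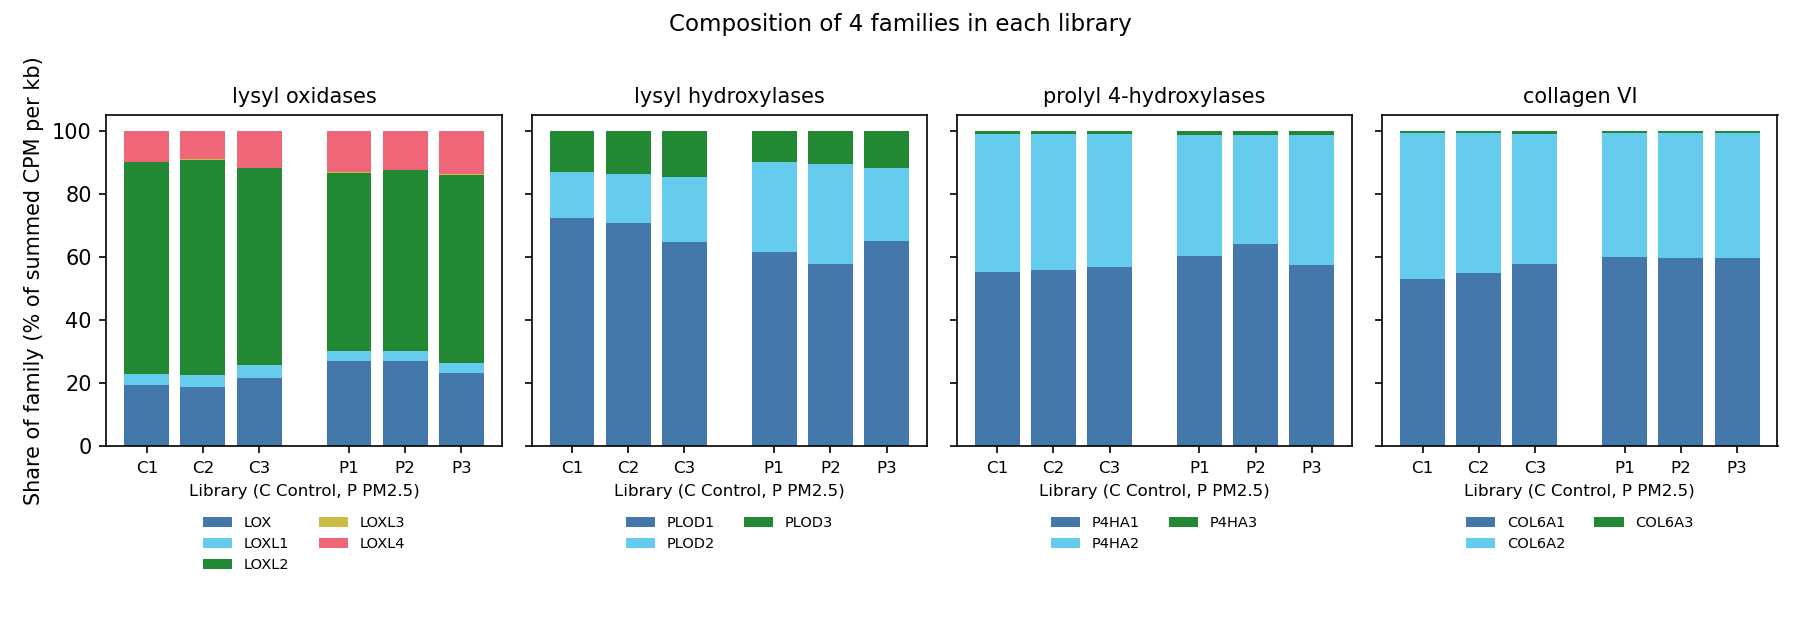
Share (%) of each member in its family's summed CPM per kb of deposited gene length, as stacked bars for 3 Control (C1 to C3) and 3 PM2.5 (P1 to P3) libraries. LOX took 19.0% to 21.7% of the lysyl oxidases in Control and 23.3% to 27.2% in PM2.5, and PLOD2 14.6% to 20.5% and 23.2% to 31.8% of the lysyl hydroxylases.

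The other gene lists, here and below, are read beside the shares over all genes tested, 16.1% higher and 15.8% lower. These lists were chosen with earlier results of these data known, so their counts are descriptions. Of 13 folding and modification partners, all tested, 7 rose and 2 fell (median log2 change 0.33). Prolyl 3-hydroxylase P3H2 rose from 50.1 ± 7.13 to 78.9 ± 3.79 CPM and CREB3L1, a membrane-bound transcription factor of secretory collagen-making cells, from 85.3 ± 13.0 to 138.8 ± 16.6 CPM. The channel gene TMEM38B, loss of which is known to disturb collagen modification, fell from 80.6 ± 5.81 to 53.7 ± 6.01 CPM. The other fall was CRTAP, the partner of P3H1, named after its values were seen, from 724 ± 88.1 to 578 ± 36.1 CPM. That call was lost without any 1 of Control replicates 1 and 2 and PM2.5 replicates 1 and 2 (adjusted p from 0.111 to 0.139 by edgeR) and with the replicate block (0.079). P3H1, also named after its values were seen, was called higher, from 103.9 ± 4.04 to 145.9 ± 17.7 CPM (adjusted p = 0.00155 by edgeR). Of 10 tested export and propeptide genes 4 rose and 1 fell (median 0.28). The procollagen C-proteinase BMP1 rose from 58.3 ± 0.813 to 79.9 ± 6.02 CPM and the export receptor MIA3 from 62.8 ± 1.86 to 84.4 ± 14.1 CPM, a call lost without PM2.5 replicate 2 (adjusted p = 0.0532 by edgeR), while KLHL12, a ubiquitin ligase adaptor for large transport carriers, fell from 14.8 ± 2.37 to 9.92 ± 0.551 CPM.

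Of 9 tested collagen receptor, uptake and turnover genes 5 rose and 2 fell (median 0.55). The collagen-binding integrin chains ITGA10 (7.39 ± 0.564 to 27.5 ± 2.01 CPM) and ITGA1 (79.0 ± 6.13 to 141.9 ± 28.5 CPM) rose with their partner ITGB1 (625 ± 69.0 to 1092 ± 150 CPM). PEPD, which frees proline from collagen fragments, fell from 83.4 ± 3.62 to 53.6 ± 4.56 CPM. The other fall was the collagen receptor kinase DDR1, named after its values were seen, from 140.9 ± 1.04 to 90.3 ± 10.9 CPM. DDR2, also named after its values were seen, was called higher, from 0.759 ± 0.0938 to 1.80 ± 0.472 CPM (adjusted p = 0.0109 by edgeR). ITGA2, at 1068 ± 137 and 834 ± 155 CPM, was not called (adjusted p = 0.0509 by edgeR), but was called lower by DESeq2 (0.027), by limma-voom (0.0436), with RLE factors (0.049), with no filter (0.00435) and without Control replicate 2 (0.045) or PM2.5 replicate 2 (0.0321). Of 5 tested collagen-binding matrix genes 3 rose and 0 fell (median 1.20). Perlecan (HSPG2), a basement membrane proteoglycan, rose by 1.31 ± 0.12 on the log2 scale, fibronectin (FN1) by 1.20 ± 0.11 and SPARC, a collagen-binding glycoprotein, by 2.26 ± 0.18.

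Of 11 tested hypoxia targets 5 rose and 0 fell (median log2 change 0.48). Over all genes tested 16.1% were called higher and 15.8% lower. PGK1 rose by 1.09 ± 0.11, PDK1 by 0.87 ± 0.16, LDHA by 0.69 ± 0.11 and NDRG1 by 0.48 ± 0.11 on the log2 scale. BNIP3 went from 282 ± 34.8 to 565 ± 24.8 CPM. VEGFA (log2 change -0.19 ± 0.10), ADM (-0.17 ± 0.11), SLC2A1 (-0.24 ± 0.11) and KDM3A (0.01 ± 0.12) were not called. Nor were EGLN3 (0.62 ± 0.31) and ANKRD37 (-0.07 ± 0.25), and CA9 had 10 counts over the 6 libraries. Lower calls were made for VEGFA without Control replicate 3 (adjusted p = 0.0146 by edgeR) and for SLC2A1 without PM2.5 replicate 3 (0.0183). P4HA1, PLOD2 and LOX are known hypoxia targets too. Whether hypoxia signalling plays a part was not tested.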

How the data were processed

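RNA sequencing of 6 libraries was used, 3 labelled Control and 3 labelled PM2.5. Per the labels' protocols, the NEBNext Ultra RNA kit and an Illumina NovaSeq instrument were used. The authors deposited whole-number read counts by gene in a single table, with symbols, coordinates and gene lengths, per the file headers. GRCh38 is the build that the submitters' processing notes name. Aligner, counter and strand setting: not given in the sources used here. GENCODE 29 held each of the 58735 identifiers, 58724 with the same start and end.

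Genes were kept by filterByExpr (minimum count 10, total 15), which left 14975, and scaled by TMM. The groups were compared by edgeR 4.0.16 (R 4.3.3) with a quasi-likelihood test, group as the only term, and Benjamini-Hochberg adjustment over all genes tested. SE is the log2 fold change over the square root of F. The fit was tested on simulated data. Alternatives were other scaling factors, DESeq2 1.42.0, limma-voom (limma 3.58.1), other filters, a replicate block and each library left out, with the tested genes kept. Per-length levels divide CPM by the deposited gene length, which for each member equals its exonic bases in GENCODE 29 over all isoforms. The size of every share and ratio depends on that length, while a ratio's log2 difference between the groups does not. No 2 libraries of a group agreed within sampling noise (chi-square per degree of freedom 5.85 to 37.2), so each counted as 1.

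The members and lists were chosen with earlier results of these data known. Members with a mean of at least 2 CPM were named with every library's value and the others with group means or counts. Exceptions were LOXL1, COL4A4, P4HA3, COL9A2 and COL16A1, which are above that level but given as group means. From each other list up to 4 called genes with the smallest p were named, and the hypoxia list is given in full. The uncalled ITGA2 was named outside that rule, and other genes so named are marked.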

Additional observations from a re-analysis of the deposited data

How the results depend on the processing

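Alternatives were counted over the 35 members that passed the main filter, so members below it are left out even with no filter. Across 13 alternatives the number of these members called higher ran from 22 to 25 and the number called lower was 0 in each. Of the 24 called members 22 were called in every alternative in which they were tested, the exceptions being COL6A2 and PLOD3. DESeq2 gave no adjusted p for COL1A2 and COL19A1, and COL1A2 was not tested with at least 1 CPM in 3 libraries. With 1 library left out, the members' median log2 change ran from 0.62 to 0.76, and without Control replicate 3 it was 0.76. All genes called numbered 3245 without PM2.5 replicate 1, when 1436 were lower against 2365 with all libraries. The other scaling factors moved the median of all genes by less than 0.1. Same-numbered libraries correlated at -0.122 to -0.002 in their deviations from the group means, and other pairs at -0.105 to 0.139. With so few libraries this cannot exclude that a replicate number marks a shared culture or day. With the replicate block 3777 genes and 23 members were called, COL6A2 (adjusted p = 0.0894 by edgeR) being the member lost. Members under 1 CPM rest on few counts.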
